A study of Rattus norvegicus with 20 samples.

Results

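The saline control condition of the study, SNS, was described on its own as a map of gene expression in the untreated female arcuate nucleus. SNS stands for prenatal saline, no spasms and postnatal saline, and it holds 4 of the 20 Sprague-Dawley female rats, all of the age of 15 postnatal days. Its members were chosen by their labels alone. Genes were ranked by the mean log2 signal over the 4 channels that hold SNS RNA, after background correction and normalization, and a gene was called detected where a probe was well above background in all 4. The other 16 rats carried prenatal betamethasone, a synthetic glucocorticoid injected into the dam in 2 doses of 0.4 mg/kg on gestational day 15. Of these, 4 had no spasms and postnatal saline (BNS), and 12 had spasms triggered by NMDA, with saline (BYS), the hormone ACTH (BYA) or PMX53, an antagonist of the complement receptor C5ar1 (BYP), 4 rats each. The labels do not say whether rats of a condition came from different litters, so the p-values below measure the spread between these samples.

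The arcuate nucleus lies at the base of the hypothalamus, beside the third ventricle and the median eminence. It is known for neurons that make the appetite-promoting peptides Agrp and neuropeptide Y, for neurons that make pro-opiomelanocortin and Cart, for kisspeptin, neurokinin B and dynorphin neurons that act on reproduction, and for neurons with growth hormone-releasing hormone or dopamine that act on the pituitary. Tanycytes, specialised glial cells with long processes, line the ventricle beside it. At this age of the rat, synapses are still being formed and myelin is being laid down.

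RNA of each rat was labelled with Cy3 (replicates 1 and 3) or Cy5 (replicates 2 and 4) and read on 60-base probes. Rats were hybridised in pairs: SNS replicates 1 and 2 were on one array, replicates 3 and 4 on another, and both arrays were on 1 slide that held no other condition of the series. A signal depends on the sequence of the probe and on the labelling as well as on the transcript, so the order of genes below is an order of signals. The first 30 bases of a few of the 60-base probes, with G and C in capitals, show what was measured for the peptide genes that define the nucleus and how much 2 probes of 1 gene can differ.
Npy, first probe: ttCCGaCCCatttCCCttGttGtCGttGta
Npy, second probe: CtGaGaCaCtGatttCaGatCtCttaatGa
Tac1, first probe: CaatGtaCttCtCtGGtCttCaGtCattGt
Tac1, second probe: aGaatCGCCCGaaGaCCCaaGCCtCaGCaG
Ghrh, first probe: tCtaCttCaGttCtGatCttCtCCttCCtC
Ghrh, second probe: aGatatCtGCtaGatatCttGGtGGaaaCa
Pomc: tGGtGaCGCtCttCaaGaaCGCCatCatCa
Agrp: ttCaataCCttttGCtaCtGCCGCaaGCta
The files place the Npy probes on the plus strand of the rn4 build at chr4:78045125-78045184 and chr4:78043176-78043235, the Pomc probe on the plus strand at chr6:26937625-26937684 and the Agrp probe on the minus strand at chr19:35386739-35386798. They do not say which exon or untranslated region a probe covers. The mean SNS level was 16.26 on the first Npy probe and 14.12 on the second, 14.13 and 12.67 on the probes of Tac1, and 12.15 and 9.15 on the probes of Ghrh. Among the 1170 detected genes with several detected probes, the gap between the highest and the lowest probe had a median of 1.36 on the log2 scale and was over 2 in 398 genes. The values below are means over the probes of a gene.

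Of 25926 genes on the array, 11498 were detected in SNS, which is 44.3%. A further 1790 genes were detected in 3 of the samples, 2600 in 2 and 2245 in 1, and 7793 in none. The dyes differed here: 11802 and 13219 genes were detected in the Cy3 samples (replicates 1 and 3) and 15889 and 17913 in the Cy5 samples (replicates 2 and 4), and 2388 genes passed in both Cy5 samples but in neither Cy3 sample. A gene that is not called detected may therefore lie just under the background limit of the Cy3 channel. The median spot stood 5.42 to 11.4 times over its local background in SNS, against 6.55 to 19.9 times in the other samples, and the number of genes detected in all 4 rats was 12227 to 17009 in the other conditions. No spot was saturated. The number of arrays limits the precision. After removal of outlier spots, 3 detected genes had no value left, and 11495 were ranked, of which 7787 (67.7%) have a RefSeq name. Their mean levels ran from 8.40 to 17.61 with a median of 10.97, and 9.25 and 14.07 were the 10th and 90th percentiles.

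The highest signal of all belonged to Cst3, which encodes the secreted protease inhibitor cystatin C. Its levels were 17.65, 17.53, 17.77 and 17.47 in replicates 1 to 4 (mean 17.61 ± 0.14, SD, n = 4). Caly, a vesicular protein of neurons, had rank 3 at 17.33 ± 0.17 and the polyubiquitin gene Ubb rank 5 at 17.26 ± 0.24. Also among the highest 20 were the ribosomal protein genes Rpl41 (17.20 ± 0.51) and Rplp2 (17.03 ± 0.17) and the tubulin Tubb4b (16.95 ± 0.21). Of the 20, 13 have no RefSeq name here, and 2 of them carry only a locus name in the files, RGD1562758 and LOC685186. Of the highest 50, 23 have a name. Others of these, listed after their values were seen, were mostly genes of the ribosome, the cytoskeleton and mitochondrial ATP synthesis (Rps12, Tuba1a, Tuba1b, Tubb2a, Myl6, Atp5me, Atp5f1a and Cox4i1), with the secreted proteins Sparc and Apoe, the small proteins Bex2 and Bex3, the transporter Slc22a17, and Ppial4g, Ceacam9 and 6330403K07Rikl. Named genes at this height differed unequally between rats. Cst3 spanned 0.30 on the log2 scale over the 4 rats. Rpl41 spanned 1.12, with replicates 1 and 2 at 17.47 and 17.77 and replicates 3 and 4 at 16.65 and 16.92.

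Most peptide genes that define the arcuate nucleus were detected. Of 18 genes on the array 16 passed, their median lay at the 80.8th percentile of all detected genes, and 4 were above the 90th. Npy was the highest, at 14.80, 15.11, 15.60 and 15.25 in replicates 1 to 4 (15.19 ± 0.33, 96.0th percentile). Sst, which encodes somatostatin, followed with 14.21, 15.58 and 15.25 in replicates 2 to 4 and no value in replicate 1, where its spot was an outlier. Pomc, the precursor of alpha-MSH and beta-endorphin, read 14.30, 14.60, 15.08 and 14.76 (14.68 ± 0.32). Agrp, the melanocortin antagonist made in Npy neurons, read 13.89, 14.45, 14.94 and 14.11 (14.35 ± 0.46). Npy, Pomc and Agrp were all lowest in replicate 1 and highest in replicate 3. The levels of Npy, Sst and Pomc overlapped between rats, and so did those of Pomc and Agrp. Within each rat, however, Npy read above Pomc and Pomc above Agrp, while the place of Sst against Pomc changed between rats. The order also depends on the probe, since the second Npy probe alone, at 14.12, lay below Pomc.

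A second group of arcuate peptide genes lay between 13.11 and 13.62. Gal (galanin) was at 13.62 ± 0.37, Cartpt, the precursor of Cart, at 13.45 ± 0.34, Tac1, the precursor of substance P, at 13.40 ± 0.74 and Tac3, which encodes neurokinin B, at 13.11 ± 0.10. Tac3 was the steadiest of the 4, at 13.17, 13.22, 12.99 and 13.05. Tac1 was the most variable gene of the list, at 12.96, 12.70, 13.59 and 14.36, with both rats of the second array above both rats of the first. Cartpt ran against Npy, Pomc and Agrp, with its lowest value, 13.02, in replicate 3. The opioid precursors Penk (12.84 ± 0.68) and Pdyn (12.71 ± 0.63) also differed in opposite directions in replicate 3, where Penk was lowest at 11.84 and Pdyn highest at 13.59. Ghrh was at 10.65 ± 0.27 and Nts (neurotensin) at 10.46 ± 0.67, near the median of all detected genes. The Ghrh value, however, is a mean of 2 probes that moved in opposite directions. The first probe read 11.39, 11.74, 12.50 and 12.96 in replicates 1 to 4, and the second 9.30, 9.28, 9.23 and 8.81. Kiss1, which encodes kisspeptin, was dim at 9.53, 9.68, 9.17 and 8.86 (9.31 ± 0.37, 11.6th percentile). Npw, Nmu and Galp were dimmer still, from 8.83 to 9.09. Npb was detected in 3 rats and Prlh in 2, and Nms is not on the array under that name.

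**Figure D1:**
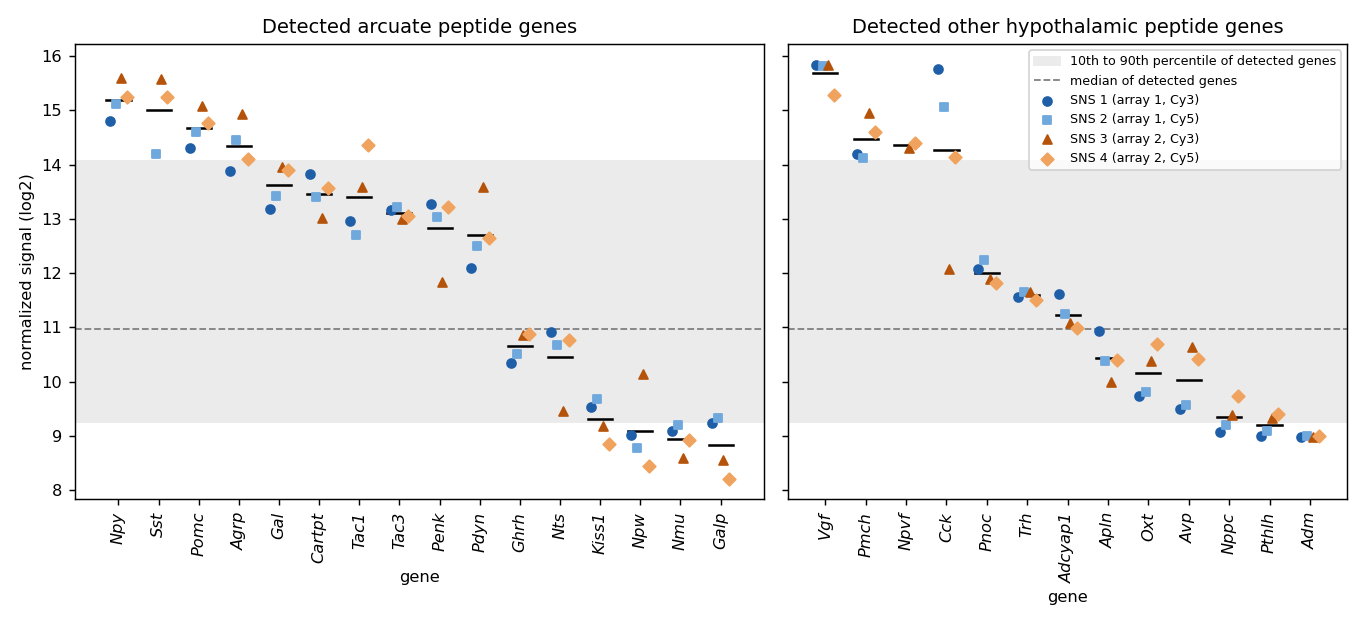
Normalized signal (log2) of the detected peptide genes of the arcuate nucleus (left) and of other hypothalamic peptides (right), 1 symbol per SNS rat and a black line at the mean of the rats with a value. The shaded band runs from the 10th to the 90th percentile of the 11495 detected genes and the dashed line is their median, 10.97; Npy, Sst, Pomc and Agrp lie above the band, and Cck spans 12.08 to 15.77.

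Peptides known from other hypothalamic nuclei were detected less evenly, with 13 of 26 genes detected. The neurosecretory precursor Vgf was highest at 15.70 ± 0.27, then Pmch (melanin-concentrating hormone, of the lateral hypothalamus) at 14.47 ± 0.38 and Npvf, a peptide of the RFamide family, at 14.32 and 14.40 in replicates 3 and 4 with no value in the others. Cck, which encodes cholecystokinin, was the most variable, at 15.77, 15.07, 12.08 and 14.14. Oxt and Avp, markers of magnocellular neurons, were near 10, at 10.16 ± 0.46 and 10.04 ± 0.58, and both were higher in replicates 3 and 4 than in replicates 1 and 2. Hcrt (orexin), Crh, Grp, Nmb and Npff were detected in 3 rats each, Gnrh1, Qrfp and Cort in 2, Vip and Ucn in 1, and Ucn3, Rln3 and Iapp in none. The machinery of peptide secretion was bright: 16 of 18 genes were detected, with a median percentile of 78.5. Scg5, a chaperone of prohormone convertase, was at 15.71 ± 0.07 and Scg2 (secretogranin II) at 15.68 and 15.66 in the 2 rats with a value. Chgb (chromogranin B) was at 15.20, 15.71 and 15.62 in replicates 2 to 4. The convertases themselves were dim, at 9.74 ± 0.18 for Pcsk2 and 9.59 ± 0.20 for Pcsk1. Cadps, a protein of dense-core vesicle release, varied most, at 14.75, 14.36, 12.42 and 13.42. Cpd and Prcp were not detected in all rats.

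The receptor lists centred near or below the middle of the detected genes. Of 54 receptors and receptor partners for peptides and metabolic hormones, 23 were detected, at a median percentile of 44.8. That is 42.6%, near the 44.3% of all genes on the array. The calcitonin receptor Calcr was the highest, at 14.06, 14.71 and 14.65 in the 3 rats with a value, followed by Ntrk2, the receptor of BDNF (13.58 ± 1.17), and the accessory protein Ramp1 (13.42 ± 0.14). Ntrk2 was also the most variable, at 14.65, 14.46, 12.97 and 12.23. The following 6 genes were not well above background in any SNS rat: Lepr, the leptin receptor, Npy2r, Ghrhr, Oxtr, Nmur2 and Bdkrb2. Another 25 passed in 1 to 3 rats, among them Mc4r, Insr and Glp1r in 2, Ghsr in 1 and Mchr1, Hcrtr2, Igf1r, Sstr4, Galr1 and Ntsr1 in 3. The others of this kind were Tacr1, Oprk1, Oprm1, Oprd1, Prlr, Sstr5, Galr3, Crhr1, Crhr2, Trhr, Cckar, Vipr1, Adcyap1r1, Gpr50 and Npr3. The melanocortin receptor Mc3r, made in the arcuate nucleus itself, was detected at a mean of 9.37 ± 0.57. In bulk RNA, fewer cells of a type and less RNA per cell cannot be told apart.

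Nuclear receptors were detected less often, in 7 of 21 cases (33.3%), at a median percentile of 18.0. The retinoid X receptor Rxrg (12.41 ± 0.10), the thyroid hormone receptor Thra (12.03 ± 0.20) and Rxrb (10.18 ± 0.14) led. The estrogen receptor Esr1, Thrb and Vdr were not well above background in any rat. Nr3c1, the glucocorticoid receptor, passed in 3 rats, Esr2, Pgr, Rxra, Ppard, Rora and Rorb in 2, and Rarb, Ppara, Pparg and Nr1d2 in 1. Receptors for amines and acetylcholine were the rarest, with 10 of 44 detected (22.7%). These were led by the histamine receptor Hrh3 (13.73 ± 0.13), the muscarinic receptor Chrm3 (12.24 ± 0.43) and the serotonin receptor Htr2c (12.19 ± 0.14). The dopamine receptor Drd2 was detected, and Chrm4 varied most, from 9.69 to 11.25. The 16 in no rat were Drd1, Drd3, Drd4, Htr1b, Htr1f, Htr2b, Htr3b, Htr4, Htr5a, Adrb3, Hrh2, Chrm1, Chrm5, Chrna5, Chrna6 and Chrnb3. Drd5, Htr2a, Adra2a and Chrna4 passed in 3 rats, Htr1d, Htr6, Adra1a, Adra2c, Adrb1, Chrna7 and Chrnb2 in 2 and Htr1a, Htr5b, Adra1d, Hrh1, Chrm2 and Chrna3 in 1.

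Receptors for the fast transmitters were detected more often, 18 of 26 for glutamate and 13 of 21 for GABA and glycine. Grik5, a kainate receptor subunit, was the highest of the former at 14.81 ± 0.19, with Grin2d, an NMDA receptor subunit of young neurons, at 14.17 ± 0.30 and the metabotropic receptor Grm4 at 13.43 ± 0.87. Grm2 varied most, at 13.51, 12.83, 11.10 and 12.20. Grik3 was detected in no rat, Grin3b, Grik4 and Grm7 in 3, Grid1, Grm3 and Grm6 in 2 and Grin2b in 1. The glycine receptor subunit Glra2, known from the immature brain, led the inhibitory receptors at 14.91, 14.99, 14.65 and 14.54. The GABA-B receptor subunits followed, Gabbr2 at 14.36, 14.48 and 14.90 in the 3 rats with a value and Gabbr1 at 12.96 ± 0.32. Gabra2 varied most, from 8.85 to 10.10. Gabra6, Gabrg3 and Gabre were detected in no rat, Gabrd and Glra1 in 3, Glra3 and Glrb in 2 and Gabrb2 in 1.

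Transmitter genes were brighter, with 13 of 20 detected at a median percentile of 78.0. The chloride extruder Slc12a5, known as KCC2, was at 14.92, 14.77, 15.09 and 15.04 (14.96 ± 0.14), and its counterpart Slc12a2 (NKCC1), which imports chloride, at 10.65 ± 0.26. Levels of the 2 probes cannot be set against each other as amounts. The vesicular GABA transporter Slc32a1 was at 14.44, 15.02 and 14.61 in the 3 rats with a value and the vesicular glutamate transporter Slc17a6 at 14.49 ± 0.30. Th, the rate-limiting enzyme of dopamine synthesis, was at 11.78, 12.12, 12.81 and 12.17 (12.22 ± 0.43). Slc18a2 varied most, from 10.60 in replicate 3 to 12.15 in replicate 4. Slc17a7, the vesicular glutamate transporter of the cortex, Tph2 and Chat were detected in no rat, Dbh and Slc6a3 in 1, Slc17a8 in 2 and Slc6a11 in 3. Of 22 hypothalamic transcription factors, 11 were detected: Nkx2-1 (11.05 ± 0.17), Fezf1 (11.01 ± 0.60) and Dlx1 (10.87 ± 0.39) were the highest and Nr5a1 the most variable. Tbx3, a factor of arcuate peptide neurons, was the same in the 4 rats within 0.14 on the log2 scale (10.05 ± 0.07). Otp and Lhx9 were detected in no rat, Hmx2, Six3 and Onecut2 in 3, Nhlh2, Sox14 and Sim1 in 2 and Prdm12, Six6 and Hmx3 in 1, and Dlx2 is not on the array under that name.

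Markers of cell types were set against the labelled tissue. Of the 8 markers set for arcuate neurons, all were detected (Pomc, Agrp, Npy, Kiss1, Ghrh, Cartpt, Tbx3 and Nkx2-1). Pan-neuronal genes were detected in 18 of 19 cases, led by Uchl1 (15.88, 16.10 and 16.56 in the 3 rats with a value), Stmn2 (15.90 ± 0.24) and Ndrg4 (15.71 ± 0.96), with Syt1 in 2 rats and Rbfox3 not on the array under that name. The astrocyte list was the most completely detected of the glial lists, with 21 of 22 genes at a median percentile of 78.6 and 9 of them above the 90th percentile of all genes. Its highest members were Cst3, Sparc (16.93 ± 0.06) and Apoe, which was at 17.04 and 17.02 in replicates 1 and 2 and at 16.38 and 16.24 in replicates 3 and 4. The water channel Aqp4 was at 12.09 ± 0.18, the glutamate transporter Slc1a3 at 11.95 ± 0.37 and Gfap, the filament of mature astrocytes, at 9.89 ± 0.40. Glul varied most, from 12.31 to 13.22. Id3 passed in 2 rats.

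Among tanycyte and ependymal genes, 13 of 19 were detected. Crym, a thyroid hormone-binding protein of tanycytes, was at 15.26, 15.88, 16.10 and 16.12, and Rsph1 and Sox2 followed at 13.29 ± 0.39 and 12.84 ± 0.22. Vim was at 12.07 ± 0.32 and Frzb varied most, from 10.40 to 12.08. The tanycyte genes Rax and Dio2, with Col23a1 and Scn7a, passed in 3 of the 4 rats, Fgf10 in none, and Ccdc153 is not on the array under that name. Myelin genes were detected in 15 of 22 cases. Mbp was at 15.20, 13.43 and 15.01 in replicates 2 to 4, Qdpr, an enzyme found in oligodendrocytes, at 13.78 ± 0.02 and the transcription factor Olig1 at 13.47 ± 0.29. Mog, Cldn11, Ugt8, Opalin and Ermn passed in 3 rats and Mal in 1. Precursors of oligodendrocytes were marked by Bcas1 (12.93 ± 0.41, also its most variable), Pdgfra (11.79 ± 0.22) and Cspg4 (11.70 ± 0.28), while the other 5 detected members lay at 9.49 (Vcan) or below and Gpr17 passed in 3 rats. Nkx2-2 is not on the array under that name.

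Microglia and complement genes were detected in 16 of 24 cases. The complement gene C1qb was at 13.43 ± 0.21 and Tyrobp, a signalling adaptor, at 12.46 ± 0.16, and the microglial receptors Cx3cr1 and P2ry12 were at 11.95 ± 0.12 and 11.37 ± 0.13. Ctss varied most, from 11.83 to 12.64. C3ar1 and Irf8 were detected in no rat, C5ar1, the receptor that PMX53 blocks in the treated condition, in 1, Ptprc and Spi1 in 2 and Tmem119, Cd68 and C3 in 3. Endothelial and mural genes were detected in 13 of 18 cases, with Slc2a1 at 13.27 ± 0.12, Cldn5 at 11.86 ± 0.19 and Kdr at 11.74 ± 0.21. Itm2a varied most, from 10.82 to 11.58, and Flt1 passed in 2 rats, Tie1 in 1, Tagln and Myh11 in 3 and Tek in none. Dividing and immature cells left a signal as well, in 10 of 16 genes: the tubulin Tubb2b of young neurons (15.27, 15.63 and 16.25 in the 3 rats with a value), Marcksl1 (15.29 ± 0.40) and Stmn1 (12.65, 12.24 and 12.44) led, and Rrm2, an enzyme of DNA synthesis, varied most, at 10.99, 11.01, 9.47 and 9.62. Ccnb1 and Birc5 passed in 3 rats, Sox11, Aurkb and Tyms in 2 and Ccnb2 in 1.

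**Figure D2:**
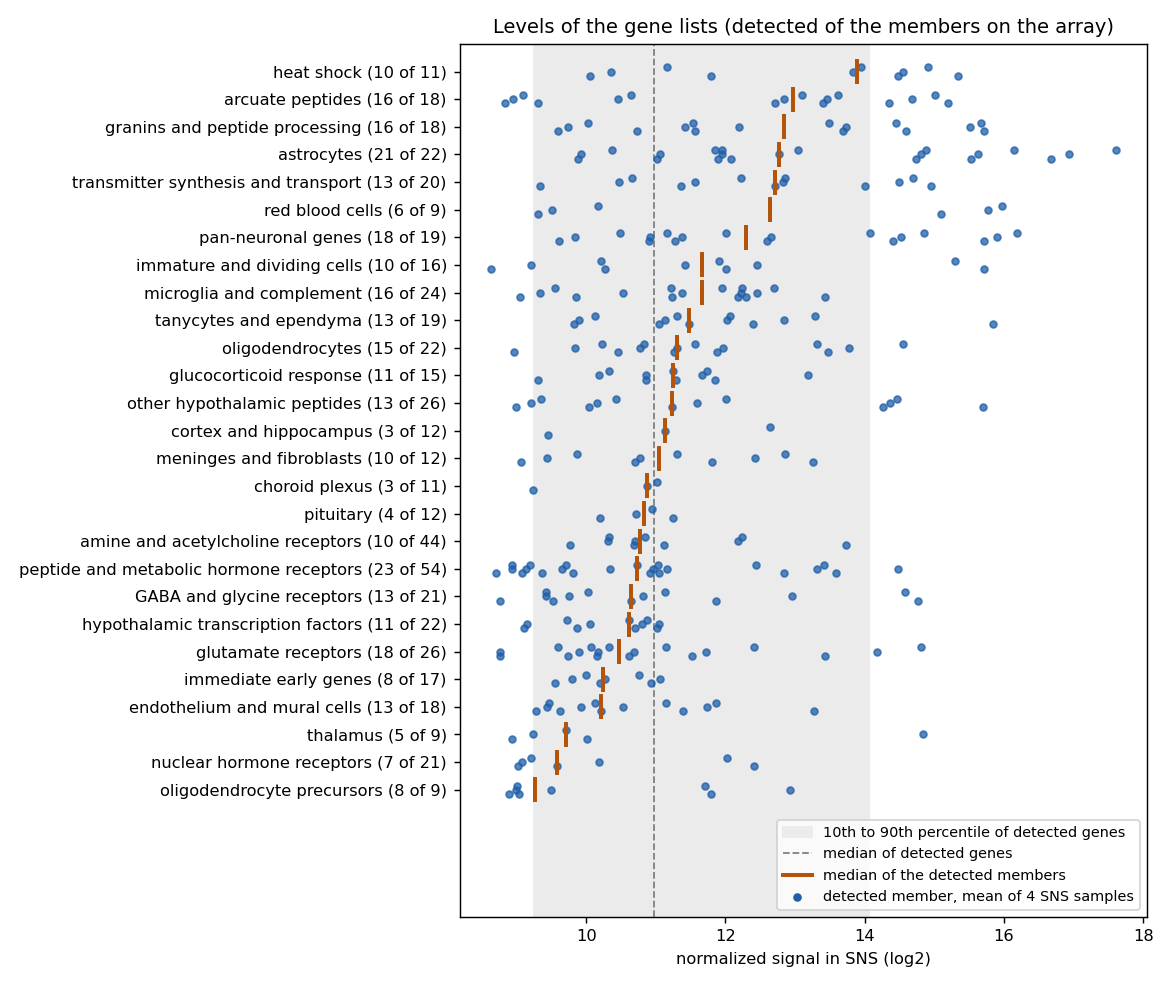
Mean SNS level (log2) of each detected member of the 27 gene lists, with the number detected of those on the array beside each list's name and an orange line at the list's median. Granins, arcuate peptides and astrocyte genes centre well above the dashed median of all detected genes, and nuclear hormone receptors, thalamic genes and oligodendrocyte precursor genes below it.

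Markers of neighbouring tissue were uneven. Hemoglobin genes were bright, Hbb at 15.98 ± 0.23, Hbb-b1 at 15.77 ± 0.14 and Hba-a1 at 15.10 ± 0.19, and 6 of 9 red cell genes were detected. Ahsp was the most variable of them, Slc4a1 passed in 3 rats and Epb42 in none, and Hba-a2 is not on the array under that name. The pituitary hormones Gh1, Prl, Tshb and Fshb were not well above background in any rat. Lhb was detected at 11.24 ± 0.21, with Tbx19 at 10.94 ± 0.20, Pitx1 at 10.71 ± 0.07 and Lhx3, the most variable, from 9.81 to 10.51. Cga and Pou1f1 passed in 2 rats. Nr5a1 and Fezf1, markers of the ventromedial nucleus just above the arcuate nucleus, were both present, Nr5a1 at 10.05, 10.45, 11.64 and 11.07. Neurod6, Tbr1, Neurod2, Prox1 and Slc17a7, of the cortex and hippocampus, and Gbx2 of the thalamus were detected in no rat. Of the 12 cortical and hippocampal genes 3 were detected, Nrgn (12.64 ± 0.35, the most variable), Mef2c (11.13 ± 0.24) and Emx1 (9.45 ± 0.15), and Bhlhe22 and Neurod1 passed in 1 rat. Of the 9 thalamic genes, 5 were detected, with Calb2, which is also a marker of hypothalamic interneurons, at 14.83 ± 0.15 and the most variable, Tcf7l2 at 10.01 ± 0.09 and Cacna1g at 9.71 ± 0.07. Lef1 and Slitrk6 passed in 3 rats and Ntng1 in 2, and Synpo2 is not on the array under that name. Of 11 choroid plexus genes, Ttr, Folr1 and Otx2 were detected, with Ttr at 12.49 in replicate 1 and at 10.18, 11.30 and 10.07 in the others. Clic6, F5, Kcnj13, Cldn2 and Slc4a5 were detected in no rat, Sostdc1 in 1, Kl in 2 and Kcne2 in 3. Of 12 meningeal genes, 10 were detected, led by Ptgds (13.26 ± 0.93), Col1a2 (12.85 ± 0.33) and Igfbp2 (12.42 ± 0.64), with Lum in 1 rat and Aldh1a2 in none.

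Genes that can respond to the state of the tissue at collection were described in 3 further lists, whose levels alone do not give that state. Immediate early genes, which neurons switch on after strong activity, were dim: 8 of 17 were detected at a median percentile of 34.2, with Jun at 11.07 ± 0.26, Junb, the most variable, at 10.92 ± 0.33 and Ier2 at 10.75 ± 0.10. Fos, Egr4 and Klf4 passed in 3 rats, Egr3 and Ccn1 in 2, Nr4a3 and Dusp1 in 1 and Egr2 and Npas4 in none, and Cyr61 is on the array only as Ccn1. Glucocorticoid-responsive genes were detected in 11 of 15 cases around the middle of the range, with Mt1 at 13.18 ± 0.31, Mt2A at 11.85 ± 0.22 and Angptl4 at 11.73 ± 0.28. Errfi1 varied most, from 10.77 to 11.88, Per1, Zbtb16 and Lcn2 passed in 2 rats and Pdk4 in none, and Plin4 and Mt1a are not on the array under those names. Heat shock genes were the brightest list of all, with 10 of 11 detected at a median percentile of 88.8. Hsp90ab1 was at 15.33 ± 0.18, Hspa8 at 14.92 ± 0.39 and Hsp90aa1 at 14.54 ± 0.24, and the endoplasmic reticulum chaperone Hspa5 varied most, at 13.20, 13.50, 14.64 and 14.45. Hspa1b passed in 3 rats, and Hspa1a is not on the array under that name.

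The 4 SNS rats fell into pairs by array. For this, the dye effect of each gene, fitted over all 20 samples, was removed. Replicates 1 and 2, which shared an array, differed by more than 2-fold in 27 genes (0.242% of those with a value in both) and replicates 3 and 4, which shared the other, in 60 (0.529%). Pairs of rats on different arrays differed by more than 2-fold in 471 to 566 genes (4.22 to 5.07%). The mean absolute difference per gene was 0.14 and 0.19 on the log2 scale within the arrays and 0.30 to 0.34 between them, whether the dyes were the same or not. In 63.0% of the detected genes with 4 values, both rats of one array lay above both rats of the other, 3695 times with replicates 1 and 2 higher and 3235 times with replicates 3 and 4 higher. The 2 pairs of rats and the 2 arrays cannot be told apart. The median SD between the 4 rats was 0.17, the same as the 0.17 in BYS and between the 0.13 of BNS and the 0.19 of BYP, but the 90th percentile of the SD was 0.43 in SNS and 0.31 to 0.40 in the other conditions.

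The most variable genes were sought among 5315 genes with a mean level at or above the median. The most variable 50 had SDs of 0.96 to 1.92. In 48 of them the 2 arrays did not overlap, 32 times with replicates 1 and 2 higher, against 61.3% of the 5315 genes. Since rats on 1 array were closer than rats on different arrays, a ranking by SD picks genes that differ between arrays. The count of 48 follows in part from that choice. Values in this paragraph have the dye effect removed. Abcd3, a transporter of the peroxisome membrane, was first, at 10.28, 11.75, 14.09 and 14.24 in replicates 1 to 4. Cpne9, a calcium-binding copine, followed among the named genes at 14.35, 13.58, 10.20 and 12.96, Klhl9, an adaptor of a ubiquitin ligase, at 13.67, 13.36, 10.41 and 10.80 and Cck at 15.67, 15.17, 11.98 and 14.24. In Cpne9 and Cck it was replicate 3 alone that stood far below the rest. Ciao3, which takes part in iron-sulfur assembly, was lowest in replicate 1 (9.10) and Mknk2, a kinase of the translation factor eIF4E, lower in replicates 1 and 2 (10.19 and 10.26) than in replicates 3 and 4 (12.50 and 12.36). Fmod (fibromodulin, of the extracellular matrix) and Ntrk2 were higher on the first array. The other 7 of the first 15 have no RefSeq name here. Among the rest of the 50 were genes of neurons, named after their values were seen: Foxb1, a transcription factor of the mammillary region, at 12.80, 12.56, 10.33 and 12.23, Cbln1, a synaptic organiser, at 11.40, 11.22, 13.49 and 13.00, and Grm2. Single spots of 1 probe within a sample had a median SD of 0.44, over 1025 probes with 4 to 10 spots. The means of the same probes had a median SD of 0.13 between rats. Averaging over spots lowers the second value, so the 2 do not compare the noise of spots with the variation between rats.

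**Figure D3:**
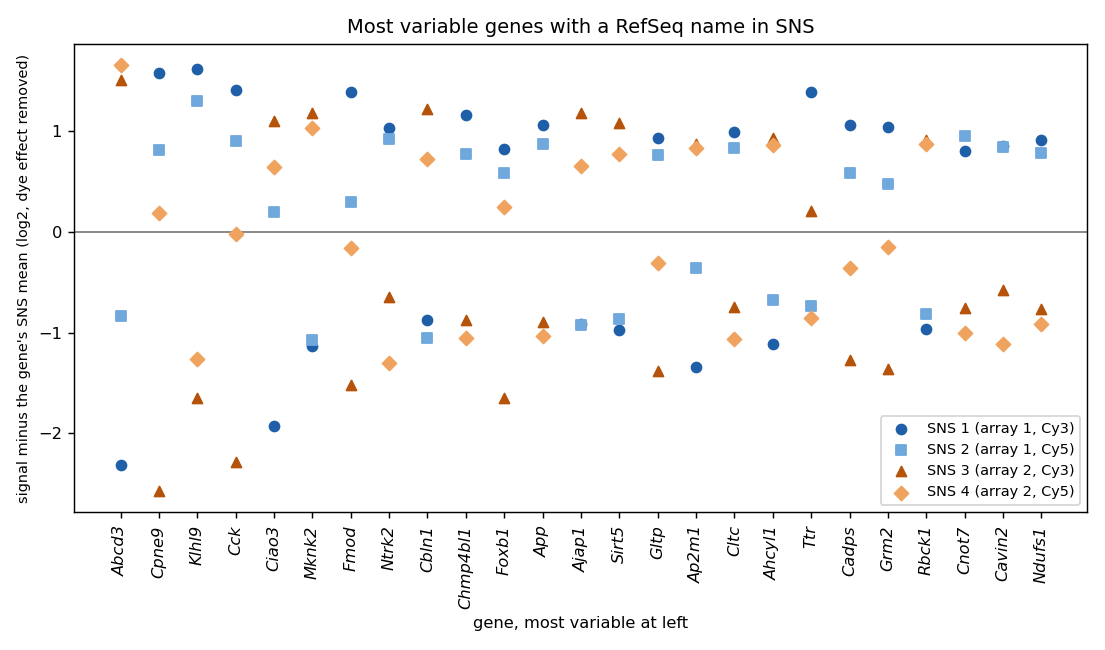
Signal of 25 of the most variable genes with a RefSeq name minus the mean of the gene over SNS (log2, dye effect removed), 1 symbol per rat. Blue symbols are the 2 rats of the first array and orange symbols those of the second; in most columns the colours lie on opposite sides of 0.

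Read as lists, oligodendrocyte genes had a lower mean on the second array. With the dye effect removed, their mean level was 11.85 and 11.63 in replicates 1 and 2 and 10.79 and 11.34 in replicates 3 and 4. The 2 arrays did not overlap in 9 of the 14 members with 4 values (64.3%, against 63.0% of all genes), 8 times with replicates 1 and 2 higher. Mobp was at 11.78, 11.35, 8.96 and 11.02, and Cnp at 11.96, 11.72, 9.82 and 9.84, before removal of the dye effect. Among pan-neuronal genes, the arrays did not overlap in 12 of 16 members, in 11 of which replicates 1 and 2 were higher. Among genes of tanycytes and ependyma, they did not overlap in 5 of 13 members (38.5%, below the share of all genes), each with replicates 3 and 4 higher, and the mean of the list was 11.39 in replicate 1 and 12.14 in replicate 3. Meningeal genes followed neither array: their means were 11.36, 10.80, 10.72 and 11.74, high in replicates 1 and 4, and Ptgds, an enzyme of the leptomeninges, read 13.81, 12.06, 13.04 and 14.15. The mean of the arcuate peptide genes lay between 11.99 and 12.11 in the 4 rats, but single members shifted in both directions. The arrays did not overlap in 10 of the 15 members with 4 values (66.7%, against 63.0% of all genes). Replicates 1 and 2 were higher in 4 of the 10 and replicates 3 and 4 in 6. The median SD of the list was 0.38, against 0.17 over all detected genes. The part of these marker shifts in the differences of other genes was not tested.

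**Figure D4:**
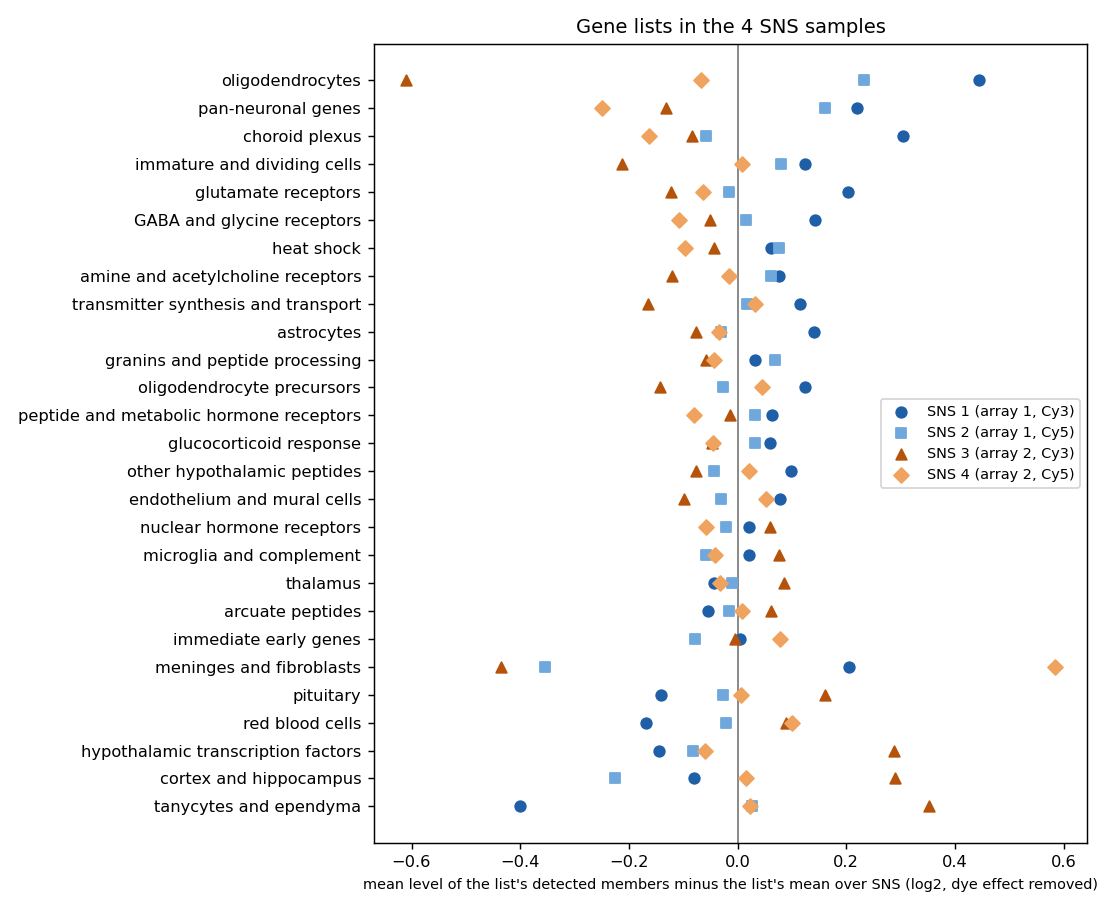
Mean level of the detected members of each list in each SNS rat, minus the list's mean over the 4 rats (log2, dye effect removed, members with 4 values). Oligodendrocyte genes reach from 10.79 in replicate 3 to 11.85 in replicate 1 and meningeal genes from 10.72 to 11.74, while the lists of microglia and of the thalamus lie within a narrow range.

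SNS was last set against the mean of the 4 conditions with prenatal betamethasone, in 1 limma fit of all 20 samples with dye as a covariate and Benjamini-Hochberg adjustment over 17083 genes. SNS lay on a slide of its own, so the condition and the slide cannot be told apart, and the differences below describe the samples as measured. In this fit 3763 genes were called higher in SNS (22% of those tested) and 3382 lower (19.8%) at the adjusted p threshold of 0.05. When the array entered as a random term, since rats on 1 array vary together (estimated correlation 0.365), 2020 were higher and 2565 lower. After scaling of the channels to a common median, 2379 were higher and 1504 lower. A stricter group had all SNS rats with a value on 1 side of all other rats with a value, after removal of the dye effect. It also kept its sign and call under that scaling. Genes with missing values could thus enter on fewer than 4 SNS rats or 16 others. It held 686 higher genes (4.02%) and 1040 lower genes (6.09%).

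Of 18 peptide genes of the arcuate nucleus tested, 2 were called higher in SNS and 1 lower, where 22% and 19.8% of all genes were. The higher genes were Tac3 by 0.60 ± 0.21 (SE, limma adjusted p = 0.032) and Nmu by 0.43 (adjusted p = 0.0091). The lower gene was Prlh, which was not detected in all SNS rats. Npy was 0.52 above the other conditions (adjusted p = 0.060), Pomc 0.29 above (adjusted p = 0.29) and Agrp at -0.38 (adjusted p = 0.33). None of the 18 was in the stricter group. With the array as a block 1 was higher and 1 lower, and from the processed signals of the scanner software none was called.

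Of 15 immediate early genes tested, 8 were detected throughout SNS. Of these 8, 2 were called lower and none higher, against 19.8% and 22% of all genes. Over all 15, 7 were called lower and none higher, with a median difference of -0.57. Of the 7, however, 5 were not detected throughout SNS and entered the test through conditions where they were brighter. Their call and the median follow in part from that filter, so the 7 of 15 cannot be set against the share of all genes. Egr4 (-1.23) and Fos (-0.90) were among these 5. The other 2 were Ier2 (-0.58, adjusted p = 0.028) and Nr4a1 (-0.45, adjusted p = 0.036). Junb, detected in all SNS rats, was at -0.93 (adjusted p = 0.051, not called). With the array as a block 2 were called lower, as with median scaling, and 5 from the processed signals. The mean of the other conditions pools BNS, which had no NMDA, with BYS, BYA and BYP, which had it. The paper places the last NMDA trigger on the day the rats were killed. Whether the immediate early genes were also lower in SNS than in BNS alone was not tested. Their differences therefore do not separate prenatal betamethasone from NMDA. Of 14 glucocorticoid-responsive genes 6 were called lower and 1 higher, with a median of -0.57. Of the 11 detected throughout SNS, 4 were called lower and none higher, against 19.8% and 22% of all genes. The rest of the 14 entered the test only through other conditions. The counts and the median over the 14 follow in part from that filter, so they cannot be set against the share of all genes. Klf9, a direct target of the glucocorticoid receptor, was at -0.87 (adjusted p = 0.00013), Fkbp5 at -0.51 (adjusted p = 0.039) and Per1, not detected throughout SNS, at 0.41 (adjusted p = 0.0055). With the array as a block 4 were lower and 1 higher, from the processed signals 3 were lower and none higher, and with median scaling 2 were lower and none higher. No gene of the immediate early or glucocorticoid lists was in the stricter group.

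Of 450 list members tested, 17 were in the stricter group as lower in SNS (3.78%, against 6.09% of all genes) and 4 as higher (0.889%, against 4.02%), so the lists held no more of them than the whole table. Of the 17, 5 were not detected throughout SNS. The largest fall was in Gabrb1, a subunit of the GABA-A receptor, at -1.87 ± 0.16 (SE, adjusted p = 3.5e-07). It rests on the 2 rats of the first array (11.15 and 11.11 against a mean of 13.00), since its spots on the second were outliers. Ndrg2, an astrocyte gene, differed by -1.22 (adjusted p = 5.8e-08) and rests on 3 rats, and Nr2f2, a transcription factor, by -1.26 (adjusted p = 7.9e-06). Olig2, which specifies oligodendrocytes, was at 11.35, 11.26, 11.21 and 11.39 against 12.39 (-1.09 ± 0.09, adjusted p = 7.6e-08). With no filter on dim probes, its difference was -0.51. The microglial gene Lyz2 fell by 1.17 on the log2 scale, whereas P2ry12 was 0.61 higher. Also lower in SNS were Alas2, Dlx1, Rxrb, Furin and C1ql1, by 0.65 to 0.87. The 5 not detected throughout SNS were tested only because of the conditions where they were brighter, and their values are given as a description. Cpd was detected in 3 SNS rats, Syt1 and Mc4r in 2 and Bhlhe22 in 1, with mean levels 0.50 to 0.74 below the other conditions. Aldh1a2 was not well above background in any SNS rat. Its mean over the other conditions was 1.75-fold higher (levels 7.44 and 8.24), with condition means from 7.97 in BYS to 8.58 in BNS. That ratio rests on an SNS level that was not well above background. Scg5 (0.30), Pou3f2 (0.68), a factor of neuroendocrine neurons, and the adrenergic receptor Adra2b (0.78) were higher. Scg5 was not called with the array as a block (adjusted p = 0.071) or without SNS replicate 1, 2 or 4. Furin, P2ry12, C1ql1 and Alas2 were not called from the processed signals, where Rxrb differed by -0.43 and Scg5 by 0.56, and Gabrb1 and Dlx1 were not called by the methods' unequal-variance test (Benjamini-Hochberg adjusted values of 0.094 and 0.067).

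**Figure D5:**
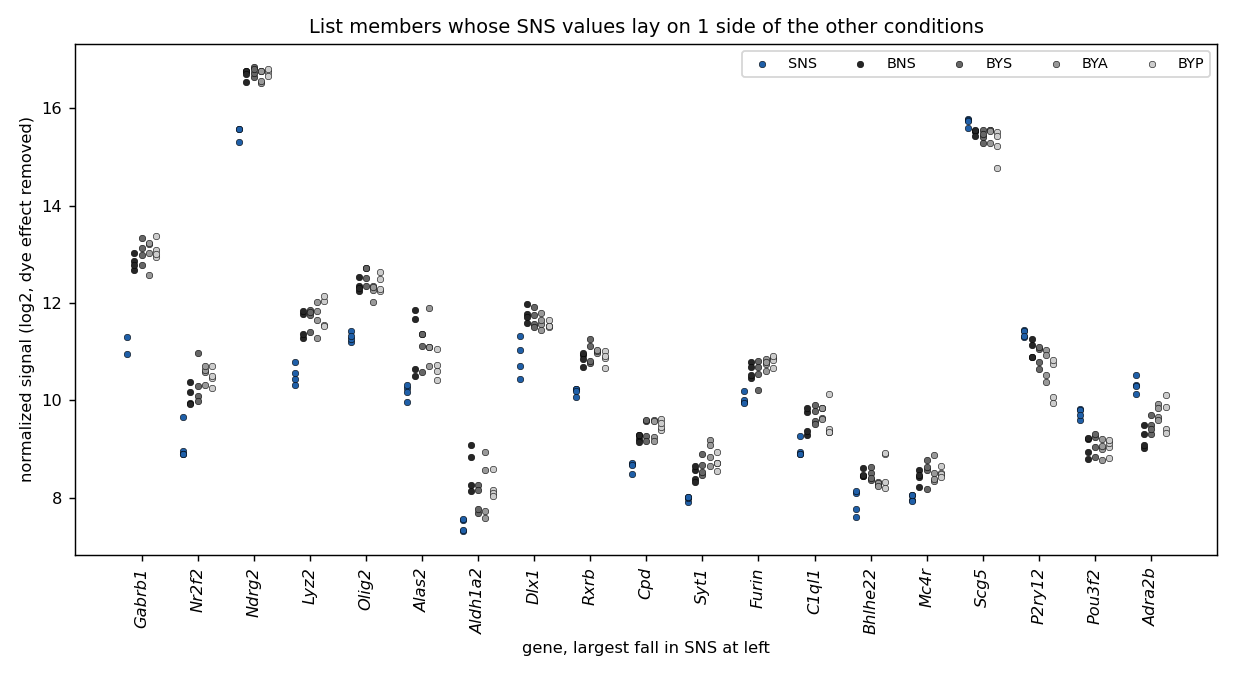
Normalized signal (log2, dye effect removed) of list members called under both scalings, 1 point per rat with a value. In each, the SNS rats with a value (blue) all lay on 1 side of the betamethasone-exposed rats with a value (grey to black by condition). Among the genes shown, the differences in mean were largest in Gabrb1, Nr2f2 and Ndrg2, and 4 genes at the right were higher in SNS. In Nr2f2 the highest SNS value, 9.65, lay close to the lowest of the other samples, 9.92.

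Of the 5 genes of the stricter group furthest below the other conditions, 4 have no RefSeq name, and the fifth was Cebpd, a transcription factor of inflammation and glucocorticoid response. Its mean was 10.23 ± 0.31 in SNS, 10.90 ± 0.12 in BNS, 12.47 ± 1.46 in BYS, 12.14 ± 1.05 in BYA and 13.66 ± 0.80 in BYP (SD, n = 4 each), so the nearest condition was BNS and the spread was widest where spasms had been triggered. The difference was -2.06 ± 0.45 (SE, adjusted p = 0.0017). The 5 furthest above were LOC501396 (1.21) and LOC680673 (1.07), named so in the files, and Abcg1, Map3k7cl and Adam7. Abcg1, a transporter that exports cholesterol, was at 13.50 ± 0.11 in SNS and 11.88 to 13.03 in the other conditions (1.04 ± 0.28, adjusted p = 0.0083), and was not called from the processed signals (adjusted p = 0.24). Its BNS mean, 11.88, rests on replicates 3 and 4 alone, and BYA was spread widely (SD 1.17, with replicate 1 at 10.54). Map3k7cl, not detected throughout SNS, differed by 1.04, and by 0.62 without SNS replicate 1. Adam7 differed by 1.03, and by 0.67 without SNS replicate 4. Neither was called by the methods' unequal-variance test (Benjamini-Hochberg adjusted values of 0.16 and 0.14).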

How the data were processed

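The authors deposited 1 file per two-colour Agilent array, in which the mean spot signals and local backgrounds are intensities and the flags of a spot are 0 or 1. The deposited processed intensities had, per the file headers, been background-subtracted and dye-normalized in Feature Extraction 11.5.1.1, while the submitters' processing notes name version 10.7.3.1. The 20 channels of this series were used, and 82 columns of another series on 2 shared arrays were not. The dye of BYA replicate 3 is uncertain, since its label and the order of names in the file differ.

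Signals were background-corrected with normexp (offset 50) and quantile normalized over the 20 channels with limma 3.58.1 in R 4.3.3. Outlier spots were left out, spots averaged per probe and probes per gene. A share of 0.5 or more of a probe's spots well above background made it detected in a sample. Genes were named through RefSeq (GRCr8) for 18643 of 30367 probes, otherwise as in the files. The contrast kept 17086 genes detected throughout at least 1 condition, and 3 of these had no value in a condition. In data simulated on 16299 genes for this contrast, 59% of genes changed by 0.5 and 96% of those changed by 1 on the log2 scale were recovered. The simulated noise was independent between samples, and 100 genes were changed by each amount. The measured samples varied together within arrays (0.365) and far more genes were called, so these shares may not hold for them.

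The text names the 20 highest genes, per list the 3 highest detected members (8 for arcuate peptides), the most variable and those not detected, the 15 most variable genes, and for the contrast the 5 largest differences each way and list members of the stricter group. SNS and these lists were chosen with earlier results of these data known. Alternatives tried were other scalings, signals, filters, blocks and probe rules, and each sample left out. A few genes that these rules name are not reported here.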

Additional observations from a re-analysis of the deposited data

Results flagged for a closer look

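Of 143 named genes with 4 SNS values examined, 6 had 1 rat whose gap to the nearest of the others, divided by the range of the 4, was over Dixon's critical value, and about 1 in 20 such groups passes by chance. The share was 0.980 for Folr1, a folate receptor of the choroid plexus, where replicate 1 was low (10.14, nearest 11.10). For the neuropeptide precursor Vgf it was 0.958, with replicate 4 low (15.29, nearest 15.82). Replicate 3 was the distant rat in the other 4 genes. It was high in Nr2f2 (0.971, 9.63 with the nearest at 8.94) and Mef2c (0.886, 11.49 with the nearest at 11.03), both transcription factors. It was low in the metabotropic glutamate receptor Grm4 (0.836, 12.15 with the nearest at 13.69) and in Olig1 of the oligodendrocyte lineage (0.834, 13.04 with the nearest at 13.56).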

How the results depend on the processing

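Of 7145 genes called between SNS and the other conditions, 3883 were called with median scaling, 3677 from the processed signals and 4585 with the array as a random block. Leaving out 1 rat gave 5575 to 7344 calls, 11498 to 13086 detected genes, 45 to 48 of the highest 50 genes and 32 to 41 of the most variable 50, with 32 without SNS replicate 3. Of the most variable 50, 30 were shared with the processed signals. The replicate block gave 7416 calls. The deviations of rats with the same number had a mean correlation of 0.0119 over 16 pairs (range -0.163 to 0.174). Of the 4 SNS samples, 1 correlated best with its own number. The labels do not give litters, so whether the number pairs rats by litter was not tested, and it was not used as a pairing in the main fit. Of 893 values for single genes under alternatives, 879 kept direction and call, 14 kept direction only and none reversed. The cause was not tested. The dim Cy3 channels limit what could be detected, and SNS had fewer spots over background than BNS and BYS.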
